A study of Arabidopsis thaliana with 9 samples.

Results

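The genes described are those annotated as histones in polyadenylated RNA of Arabidopsis thaliana callus and leaf. A gene was taken when its deposited description held "histone superfamily", or "histone H" followed by a digit from 1 to 4, and held none of the words methyl, acetyl, kinase and chaperone. This gave 33 of the 18861 genes listed in any group. By a list of Arabidopsis histone genes, 30 of the 33 encode a linker or core histone. They comprised 1 linker histone H1 gene, 3 replicative H2A, 4 H2A.Z, 3 H2A.W and 5 H2B genes, 4 H3.1 genes, 1 H3.3 gene, 1 H3-like gene and 8 H4 genes. The other 3 are not histones by that list, and their annotations read histone H2A deubiquitinase (AT3G07565) and histone superfamily protein (AT5G19490 and AT5G50930). A further 15 listed histone genes carry descriptions that the words miss, among them both H2A.X genes, H1.1, H1.2, HTR4 and HTR5. Their values enter class totals and are given beside the members of their class, and they count in no tally of the 33.

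The libraries fell into 3 groups of 3, which the labels call biological replicates. The emf2 callus carried the allele emf2-1, per the file headers, and the WT callus was Col-0. Both came from cotyledons kept on Gamborg B5 callus-inducing medium, which held 2,4-D, an auxin, at 2.2 µM and the cytokinin kinetin at 0.46 µM. After 2 cold days and 7 days of light the explants stood in the dark, and callus was 6 to 8 weeks old. Leaves were rosette leaves of Col-0 plants that had spent 1 week on MS medium under constant light and then 2 weeks in soil under long days, so callus differed from leaf in tissue, age, medium, hormones and light together. EMF2 protein belongs to Polycomb Repressive Complex 2, the enzyme complex that methylates histone H3 at lysine 27. The EMF2 transcript stood at 13.0, 15.5 and 16.3 RPKM (a read count divided by gene length and by a scaling factor of the library) in emf2 callus, at 7.43, 6.78 and 7.55 RPKM in WT callus and at 5.50, 6.07 and 29.6 RPKM in leaf. The labels do not state the lesion, so this level is no check of the genotype.

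Histones package DNA into nucleosomes, in which the core histones H2A, H2B, H3 and H4 form an octamer and the linker histone H1 binds the DNA between octamers. Replicative histones such as H3.1 are made in bulk while DNA is copied, whereas variants such as H3.3 and H2A.Z are also deposited outside S phase, the stage of DNA synthesis. Plant histone mRNAs end in poly(A) tails, so selection of polyadenylated RNA retains them.

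Several of these genes encode the same protein, and what sets them apart lies outside it. In the TAIR10.1 annotation, all 28 pairs of the 8 H4 genes encoded identical proteins of 103 residues, although their coding sequences matched over 78.8 to 98.1% of bases. The 5 listed H3.1 genes also encoded 1 protein, with coding identities of 80.3 to 89.5%. H3.1 (HTR9) and H3.3 (HTR8) proteins of 136 residues differed at 4 places, written from H3.1 to H3.3 as A31T, F41Y, S87H and A90L and counted without the initiator methionine. The stretch that holds these places follows, with the 4 codons in capitals and the codon of lysine 27 first. Both genes lie on the minus strand of chromosome 5 in TAIR10 coordinates, HTR9 at chr5:3270172-3270957 and HTR8 at chr5:3472405-3473570, and codons 28 to 95 of each are given 5′ to 3′.
HTR9: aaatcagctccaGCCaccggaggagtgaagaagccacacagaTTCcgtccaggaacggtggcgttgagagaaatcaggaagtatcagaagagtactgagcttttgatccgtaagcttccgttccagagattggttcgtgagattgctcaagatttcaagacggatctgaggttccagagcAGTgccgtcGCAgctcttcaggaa
HTR8: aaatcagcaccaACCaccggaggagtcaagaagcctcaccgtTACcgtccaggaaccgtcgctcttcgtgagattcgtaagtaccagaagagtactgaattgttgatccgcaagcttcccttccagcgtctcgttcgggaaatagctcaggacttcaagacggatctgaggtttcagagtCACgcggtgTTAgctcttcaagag
These sequences were 80.3% identical over the whole coding region.

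The 250 bases before the gene start shared short runs of letters. The octamer CGCGGATC, searched on both strands, stood in 7 of the 33 promoters (21.2%), against 37 of all 27443 protein-coding promoters of the same length (0.135%). Of those 37 promoters, 10 belonged to listed histone genes. The 7 member stretches of 80 bases are shown because the octamer was far more frequent in these promoters than in all promoters, with the octamer or its other strand, GATCCGCG, in capitals. Each is written 5′ to 3′ on the strand of its gene, from the TAIR10.1 genome of RefSeq.
HTR2 (H3.1), minus strand, chr1:2972345-2972424: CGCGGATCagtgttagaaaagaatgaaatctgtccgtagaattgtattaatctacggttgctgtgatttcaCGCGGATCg
HTR9 (H3.1), minus strand, chr5:3271034-3271113: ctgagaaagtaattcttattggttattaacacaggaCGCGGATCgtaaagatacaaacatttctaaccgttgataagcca
AT1G07660 (H4), plus strand, chr1:2368671-2368750: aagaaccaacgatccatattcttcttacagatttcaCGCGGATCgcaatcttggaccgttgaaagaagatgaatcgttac
AT5G59690 (H4), plus strand, chr5:24051363-24051442: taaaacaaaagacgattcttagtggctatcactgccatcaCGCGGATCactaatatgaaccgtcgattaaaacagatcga
HTA10 (H2A), plus strand, chr1:18926730-18926809: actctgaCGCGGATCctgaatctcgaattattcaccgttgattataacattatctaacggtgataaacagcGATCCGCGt
HTA13 (H2A), plus strand, chr3:7229280-7229359: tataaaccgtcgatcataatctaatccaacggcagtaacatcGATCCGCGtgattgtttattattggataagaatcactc
HTA6 (H2A.W), minus strand, chr5:24116293-24116372: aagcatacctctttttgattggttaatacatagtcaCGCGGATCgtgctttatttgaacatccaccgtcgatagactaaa
A second run, CCGTNGAT on either strand, was chosen after these stretches had been read. It stood in 14 of the 33 promoters (42.4%) and in 1.44% of all promoters, and 9 of the 10 listed histone genes with the octamer held both runs. It was found in 4 of 5 H3.1 and 6 of 8 H4 promoters and in none of the 3 H3.3 and 4 H2A.Z promoters. The hexamer ACGTCA stood in 8 of the 33 promoters (24.2%), against 7.69% of all promoters. It was found in 8 of the 10 listed H2B, 2 of the 5 H3.1 and 1 of the 3 H3.3 promoters. None of the 8 H4, 4 replicative H2A, 4 H2A.Z and 3 H1 promoters held it. An E2F motif, searched as TTTCCCGC, TTTCGCGC, TTTGCCGC or TTTGGCGC, stood in 2 of the 33 promoters (6.06%), against 1.41% of all promoters. The telo box AAACCCTA stood in 0 of the 33, against 4.49% of all promoters. A match is a description of letters and not of a bound site.

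The gene models differed in the same classes. All 4 H3.1 members and all 5 H2B members had 1 exon and 7 of the 8 H4 genes had 1, whereas HTR8 (H3.3) had 3 exons and the H2A genes had 2 or 3. Reads of near-identical copies could have been split in counting. For the H4 genes AT1G07660, AT1G07820, AT3G45930 and AT3G46320, 19.4 to 28.5% of the 50-base windows of the transcript occurred elsewhere in the genome, and for AT5G59690 and AT5G59970 the shares were 8.48% and 6.94%. No other member exceeded 2.44%, and the H4 genes HIS4 and AT3G53730 had 0%. Levels of the H4 genes with shared windows are therefore less certain than those of the rest. HTB10 lies wholly within the span of HTA12, on the other strand, and the sources used here do not say whether strand was used in counting, so reads of this pair cannot be told apart.

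The tables list a gene where the group mean exceeds 1 RPKM. Of the 33 genes, 29 were listed in all 3 groups, 32 in emf2 callus, 31 in WT callus and 30 in leaf. The reads recovered from the RPKM values came to 40057250 to 53239915 per callus library and 40641679 to 45049390 per leaf library. A member had a median of 1015 to 2184 reads in callus libraries and 451 to 581 reads in leaf libraries, and the lowest listed value rested on 13 reads. HTR8 was the most abundant member in callus, at 241 ± 30.2 RPKM in emf2 callus and 236 ± 31.0 RPKM in WT callus (SD, n = 3 each). The H3.3 gene HTR5, which the rule misses, was higher still, at 393 to 581 RPKM in the callus libraries. In leaf the most abundant member was the H4 gene AT5G59690, at 146 ± 20.1 RPKM (SD, n = 3). There too the H3.3 genes HTR5 and HTR4, which the rule misses, had higher means, at 230 and 160 RPKM.

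**Figure D1:**
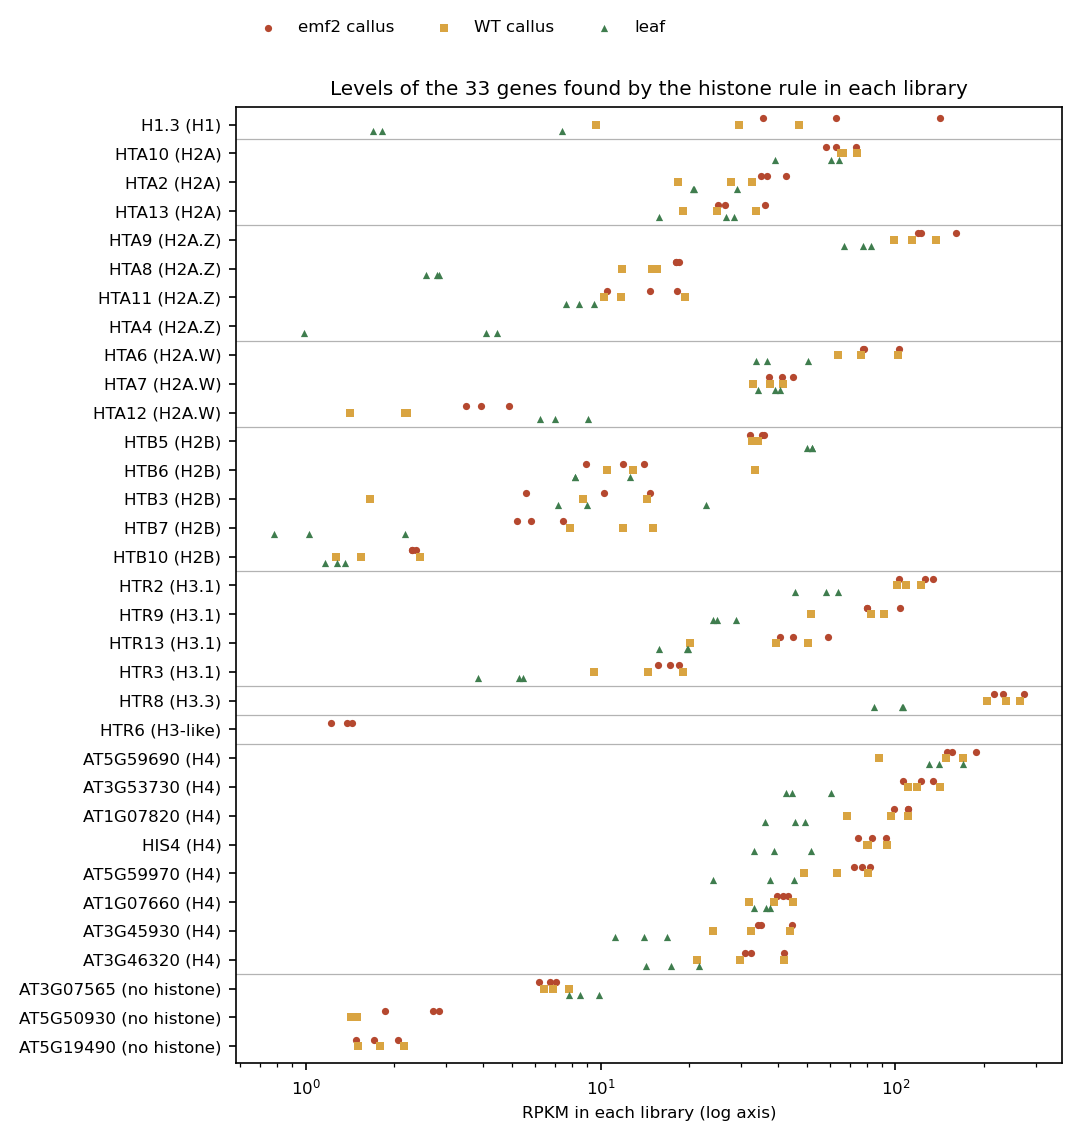
Level of each of the 33 genes in every library, in RPKM on a log axis, with emf2 callus as circles, WT callus as squares and leaf as triangles. Levels run from 0.778 RPKM (HTB7 in leaf) to 274 RPKM (HTR8 in emf2 callus), and most leaf points lie left of the callus points.

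The first comparison set WT callus against leaf. Histone genes were mostly higher in WT callus. Summed over the 29 genes listed in all 3 groups, the level was 1639, 1732 and 1340 RPKM in the WT callus libraries, against 1063, 883 and 905 RPKM in the leaf libraries, and the groups did not overlap. Of 29 members tested with limma, 16 rose (55.2%) and 2 fell (6.90%) at an adjusted p under 0.05, against 33.6% and 31.8% of all 14780 genes. At least a 2-fold change with a passing test was met by 10 members upward and 1 downward, against 14.9% and 22.2% of all genes. All 3 WT callus libraries lay above all 3 leaf libraries for 17 members and below them for 2, against 35.8% and 33.1% of all genes. The median log2 fold change on the scale of log2(RPKM + 1) was 0.75 over the members and 0.06 over all genes. In bulk tissue, fewer cells of a type and less RNA per cell cannot be told apart. The scaling of the tables bears on these counts. Reads outside the listed genes are not known, so totals of all mapped reads could not be checked. The deposited values are not scaled by the total reads recovered for the listed genes of a library. With scaling by those totals (library totals), 27 members rose and 1 fell, while the median of all genes moved to 0.86, and the members' median exceeded it by 0.78, against 0.68 with the deposited scaling. Over all genes, 62.4% rose and 16.9% fell with library totals.

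**Figure D2:**
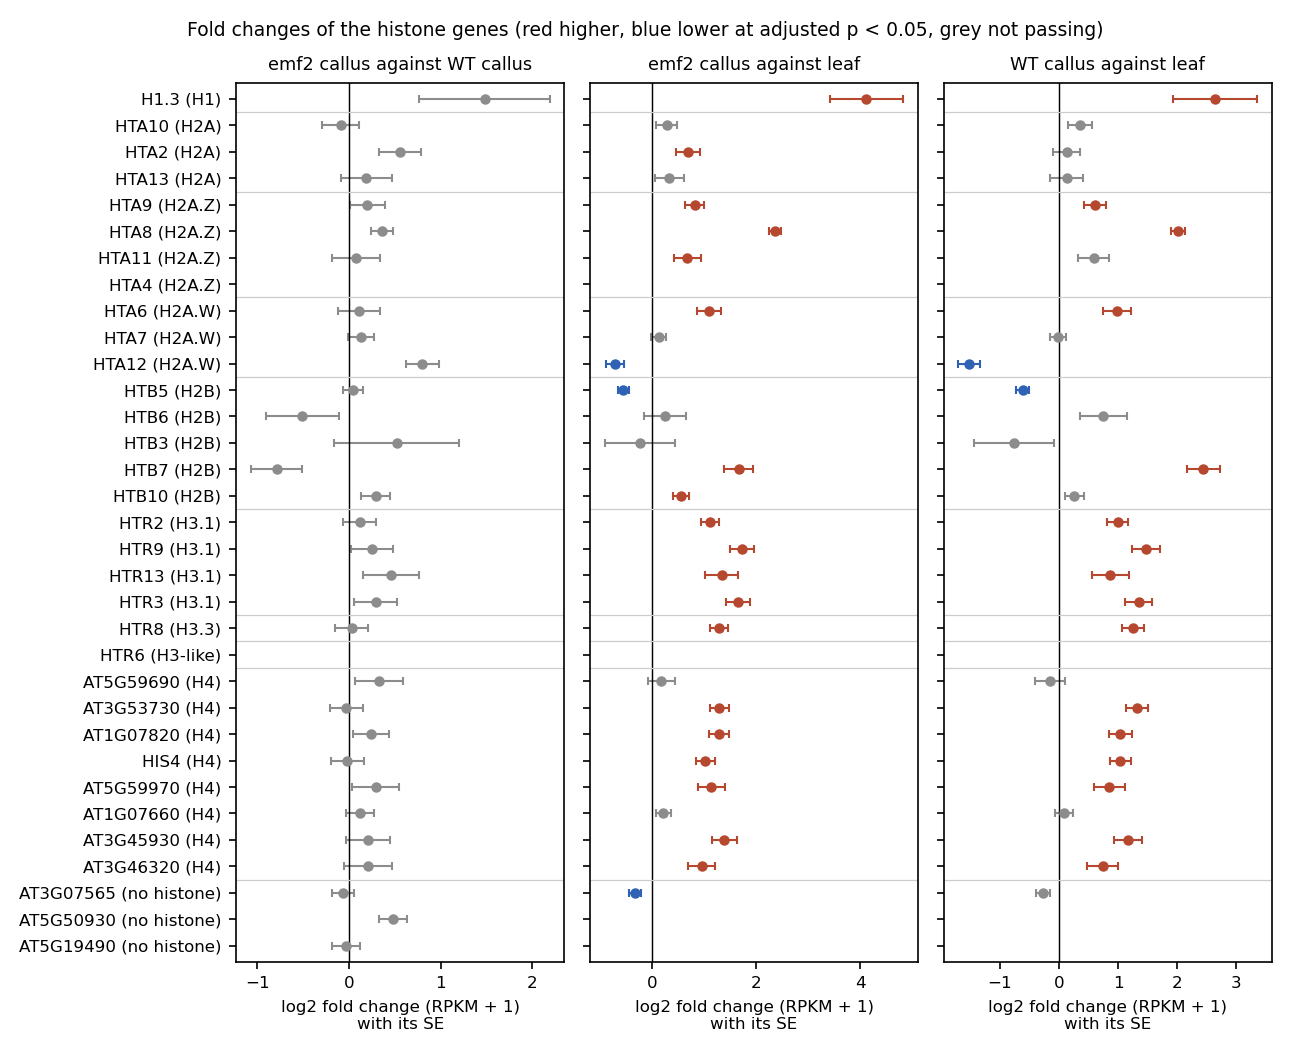
Log2 fold change on the scale of log2(RPKM + 1) with its SE for each gene listed in both groups, for emf2 callus against WT callus, emf2 callus against leaf and WT callus against leaf. Red marks genes that rose, blue those that fell and grey those that did not pass, and every point of the emf2 against WT callus panel is grey.

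The linker histone H1.3 (HIS1-3, AT2G18050), known as a stress-inducible H1, rose with the widest error of the members that passed. It had 47.0, 29.4 and 9.66 RPKM in WT callus, against 1.82, 1.69 and 7.41 RPKM in leaf. The groups did not overlap, but 9.66 and 7.41 RPKM lay close together. The log2 fold change was 2.64 (SE 0.71, adjusted p = 0.0110), and it was 2.17 to 3.26 when any 1 library was left out. This was the highest value of the 29 members on the log2(RPKM + 1) scale, but the H2B gene HTB7, at 2.44, exceeded it with a pseudocount of 0.1 and without WT callus replicate 1 or 2 or leaf replicate 2. The main linker histones H1.1 and H1.2, which the description rule misses, rose less, by 1.1 (SE 0.20, adjusted p = 0.00163) and 0.81 (SE 0.22, adjusted p = 0.0105). H1.3 therefore made up 14.4, 10.5 and 3.59% of H1 transcripts in WT callus, against 1.09, 1.69 and 4.89% in leaf, and on this share the groups overlapped.

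None of the 3 replicative H2A members passed, whereas the fourth gene of that type, HTA1, which the description rule misses, rose by 0.81 (SE 0.12, adjusted p = 0.000406). HTA10, the most abundant of them, had 65.4, 66.5 and 74.2 RPKM in WT callus, against 64.5, 60.4 and 39.1 RPKM in leaf (log2 fold change 0.35, SE 0.20, adjusted p = 0.154). HTA2 and HTA13 both had a log2 fold change of 0.13 and overlapped between the groups. With library totals all 3 members passed upward, at 1.05 to 1.3.

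H2A.Z marks promoters and the first nucleosomes of genes, and 2 of its 3 tested genes rose. HTA8 had 15.5, 15.0 and 11.8 RPKM in WT callus, against 2.78, 2.84 and 2.56 RPKM in leaf. HTA8 thus rose by 2.01 on the log2 scale, with an SE of 0.12 (adjusted p = 3.51e-06), and its groups were tight and far apart. HTA9, the most abundant H2A.Z gene, had 114, 137 and 98.8 RPKM in WT callus, against 82.6, 66.7 and 77.5 RPKM in leaf, and rose by 0.61 (SE 0.19, adjusted p = 0.0193), a call that was lost when WT callus replicate 2 or leaf replicate 2 was left out. HTA11 missed the threshold at 0.59 (adjusted p = 0.0733), although its groups did not overlap, and it passed without WT callus replicate 3 (0.76, adjusted p = 0.0432). The fourth gene, HTA4, whose protein matched HTA9 at 52.9% of positions, was listed in leaf alone, with 4.09, 4.47 and 0.988 RPKM. Against 1 RPKM, the highest mean of a gene not listed in WT callus, it did not pass with limma (adjusted p = 0.0606). Listing in leaf fixed the direction of this test, which 84.3% of genes listed in leaf and not in WT callus passed.

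H2A.W, the variant of plant heterochromatin, has 3 genes, and each went its own way. HTA6 had 76.5, 102 and 63.7 RPKM in WT callus, against 50.5, 33.8 and 36.7 RPKM in leaf, and rose by 0.98 (SE 0.23, adjusted p = 0.00558). HTA7 had 41.7, 37.7 and 33.0 RPKM in WT callus, against 39.2, 40.5 and 34.1 RPKM in leaf, with a log2 fold change of -0.02 that did not pass (adjusted p = 0.910). HTA12 had 2.21, 2.18 and 1.41 RPKM in WT callus, against 7.01, 9.07 and 6.22 RPKM in leaf, and fell by 1.52 (SE 0.18, adjusted p = 0.000149). HTA12 had the lowest log2 fold change of the 29 members, and whether reads of HTB10 entered its count is not known. HTA12 still passed downward with library totals, whereas HTA7 became higher in WT callus there, at 0.91.

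Of the 5 H2B members, HTB7 rose and HTB5 fell. HTB7 had 11.9, 7.89 and 15.1 RPKM in WT callus, against 0.778, 1.03 and 2.18 RPKM in leaf, and rose by 2.44 (SE 0.28, adjusted p = 0.000115). Its leaf values rested on 13 to 43 reads. HTB5, the most abundant H2B member, had 32.7, 33.2 and 34.1 RPKM in WT callus, against 52.0, 50 and 52.1 RPKM in leaf, and fell by 0.61 (SE 0.11, adjusted p = 0.00117). Both groups were tight and did not overlap, but the direction depended on scaling, and with library totals HTB5 was higher in WT callus, by 0.33, while with quantile normalization it did not pass (-0.06, adjusted p = 0.667). HTB3, HTB6 and HTB10 did not pass, and HTB3 ranged from 1.65 to 14.4 RPKM among the WT callus libraries. All 5 H2B genes outside the description rule rose, by 0.75 to 1.51.

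All 4 H3.1 members rose. HTR9 had 82.8, 91.7 and 51.7 RPKM in WT callus, against 28.7, 24 and 24.9 RPKM in leaf, and rose by 1.47 (SE 0.23, adjusted p = 0.000625). HTR3 rose by 1.35 (SE 0.23, adjusted p = 0.00114), with 14.5, 19.0 and 9.50 RPKM in WT callus and 5.29, 5.46 and 3.85 RPKM in leaf. HTR2, the most abundant H3.1 member, had 109, 122 and 101 RPKM in WT callus, against 58.0, 45.6 and 63.7 RPKM in leaf, and rose by 0.99 (SE 0.18, adjusted p = 0.00139). HTR13, which lies 577 bases from HTR9, rose by 0.87 (SE 0.31, adjusted p = 0.0373), a call that was lost with any 1 library left out except WT callus replicate 3.

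The H3.3 gene HTR8 encodes the variant that replaces H3.1 at transcribed genes. It had 265, 204 and 238 RPKM in WT callus, against 106, 84.8 and 105 RPKM in leaf. The groups stood far apart, and the log2 fold change was 1.25 (SE 0.18, adjusted p = 0.000411). Of the other H3.3 genes, HTR5 rose by 0.94 (SE 0.18, adjusted p = 0.00186) and HTR4, at -0.29, missed the threshold (adjusted p = 0.434), although both encode the same protein as HTR8 and lie 42 bases apart. H3.1 thus made up 29.2, 32.5 and 28.1% of the RPKM of H3.1 and H3.3 genes in WT callus, against 23.8, 23.9 and 26.4% in leaf.

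The 8 H4 genes encode 1 protein but differed in response. Of these, 6 rose, by 0.74 to 1.32, and 2 did not pass. AT3G53730 had 110, 118 and 142 RPKM in WT callus, against 60.5, 42.7 and 44.5 RPKM in leaf (log2 fold change 1.32, SE 0.18, adjusted p = 0.000360). AT3G45930 had 32.3, 44.0 and 24 RPKM in WT callus, against 16.8, 14.0 and 11.2 RPKM in leaf (1.17, SE 0.24, adjusted p = 0.00278). HIS4 had 80.3, 93.3 and 80.8 RPKM in WT callus, against 51.9, 33.1 and 38.9 RPKM in leaf (1.04, SE 0.18, adjusted p = 0.00133). AT1G07820 also rose by 1.04 (SE 0.20, adjusted p = 0.00222), and AT5G59970 by 0.85 (adjusted p = 0.0183), a call lost without WT callus replicate 2.

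AT5G59690, the most abundant H4 gene, was 1 of the 2 that did not pass on the deposited scaling. It had 149, 170 and 88.2 RPKM in WT callus, against 169, 141 and 130 RPKM in leaf, and the groups overlapped (log2 fold change -0.15, SE 0.26, adjusted p = 0.613). AT1G07660 stood likewise at 38.7, 44.9 and 31.9 RPKM in WT callus and at 37.7, 36.4 and 33.1 RPKM in leaf (0.09, adjusted p = 0.594). Both calls depended on scaling. AT5G59690 was at 0.80 (adjusted p = 0.0232) and AT1G07660 at 1.02 (adjusted p = 0.000427) with library totals, and AT1G07660 also passed with quantile normalization (0.61, adjusted p = 0.0143). Within a library the share of a gene does not depend on scaling. AT5G59690 made up 24.8, 24.1 and 17.4% of H4 transcripts in WT callus, against 37.3, 39.3 and 38.0% in leaf. AT3G53730 made up 18.4, 16.8 and 28.1% in WT callus, against 13.4, 11.9 and 13.0% in leaf. AT3G46320 rose by 0.74 (adjusted p = 0.0326), a call that was lost when WT callus replicate 1 or 2 or leaf replicate 2 or 3 was left out, and also in a fit on these groups alone.

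**Figure D3:**
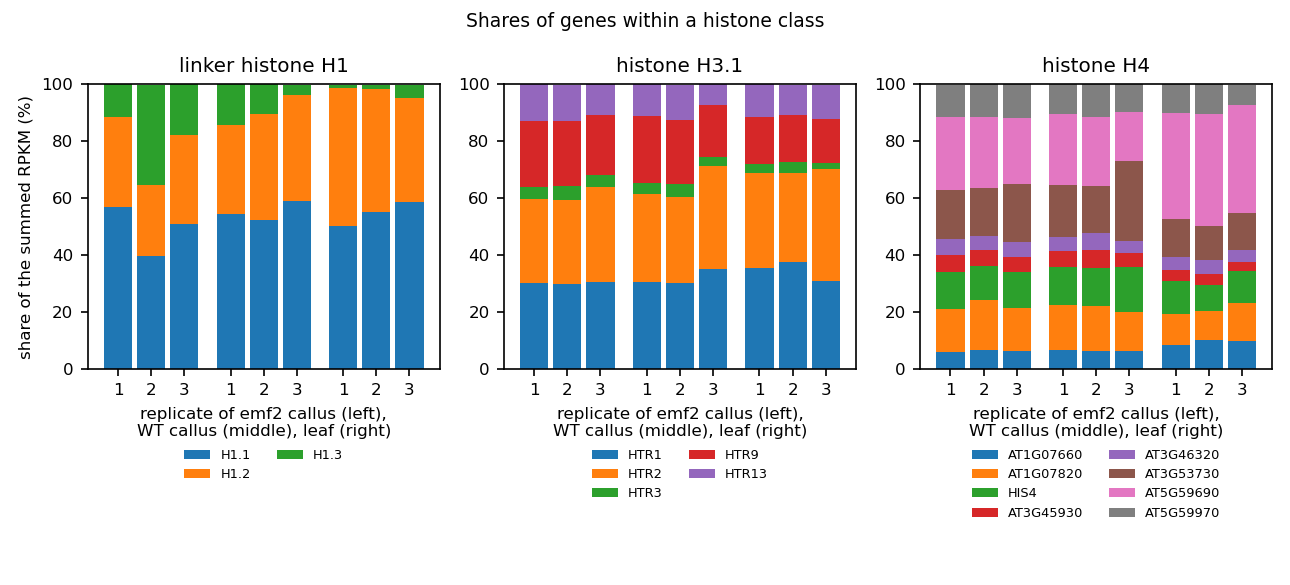
Share of each gene in the summed RPKM of its class, in percent, for H1, H3.1 and H4 in the 9 libraries, with emf2 callus left, WT callus in the middle and leaf right. AT5G59690 takes 37.3 to 39.3% of H4 in leaf and 17.4 to 25.9% in the callus libraries, and H1.3 takes at most 4.89% of H1 in leaf and up to 35.3% in callus.

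The promoter octamer did not divide the genes that rose from the rest. Of the 7 members with it, 3 rose (HTR9, HTR2 and HTA6) and 4 did not pass, with a median log2 fold change of 0.35, whereas 13 of the 22 tested members without it rose and 2 fell, with a median of 0.80. Both H4 genes that did not pass on the deposited scaling carry it. Over all listed histone genes the medians were 0.96 for the 10 with the octamer and 0.81 for the 32 without.

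Of the genes listed on 1 side of the comparison, AT5G19490 and AT5G50930 were listed in callus alone. AT5G19490 had 1.79, 2.15 and 1.5 RPKM and AT5G50930 had 1.49, 1.46 and 1.42 RPKM in WT callus. Listing required a mean above 1 RPKM, so the direction of a test against that bound was fixed in advance. Its p-values are drawn from the values that listed the gene. Both genes passed with limma (adjusted p = 0.00603 and 0.0420), as did 69.4% of genes listed in WT callus and not in leaf. The deubiquitinase AT3G07565 did not pass, with 6.88, 6.41 and 7.83 RPKM in WT callus and 8.54, 9.85 and 7.81 RPKM in leaf. HTR12, the centromeric H3 that the rule misses, had 1.79, 2.65 and 1.62 RPKM in WT callus and was not listed in leaf.

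Genes of dividing cells moved in the same direction. Of 19 tested DNA replication genes 17 rose (89.5%), against 33.6% of all genes. Their median log2 fold change was 1.40, led by CDT1A (2.02), a licensing factor, the clamp gene PCNA1 (2.01) and the helicase gene MCM2 (1.98). All 8 tested mitosis genes rose, with a median of 1.53, led by the kinase gene CDKB1;1 (2.68), the syntaxin gene KNOLLE (1.70) and CDKB2;1 (1.64). Summed, these 8 genes had 69.8, 111 and 54.8 RPKM in WT callus, against 22.7, 22.3 and 12.2 RPKM in leaf. Their part in the histone levels was not tested. The leaf marker genes summed to 203, 24.1 and 49.3 RPKM in WT callus and to 46644 to 69864 RPKM in leaf, and all 9 fell, while 4 of the 5 callus marker genes were listed in WT callus, where they summed to 172 to 225 RPKM, and none was listed in leaf.

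Genes that handle histones also rose. Of 21 chaperone and remodeller genes, 17 rose (81.0%) and 1 fell (4.76%), against 33.6% and 31.8% of all genes. Their median log2 fold change was 0.90. The largest rises were those of DDM1 (2.63, SE 0.14, adjusted p = 1.91e-06), a remodeller needed for DNA methylation in heterochromatin, of the nucleosome assembly gene NRP2 (1.58, SE 0.17, adjusted p = 6.98e-05) and of MSI1 (1.40, SE 0.12, adjusted p = 2.13e-05), a subunit shared by the assembly factor CAF-1 and Polycomb Repressive Complex 2. FAS1, a further subunit of CAF-1, which deposits H3.1 with H4 behind the replication fork, rose by 1.21, and HIRA, which deposits H3.3, rose by 0.84. PIE1, the ATPase of the complex that places H2A.Z, rose by 0.87. Of its partners, SWC6 rose by 0.49 and ARP6 did not pass (-0.20). SWC4 fell by 0.30 (adjusted p = 0.0342), a fall lost without WT callus replicate 1 or 3 or leaf replicate 1 or 2. With library totals all 21 genes rose, against 62.4% of all genes.

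**Figure D4:**
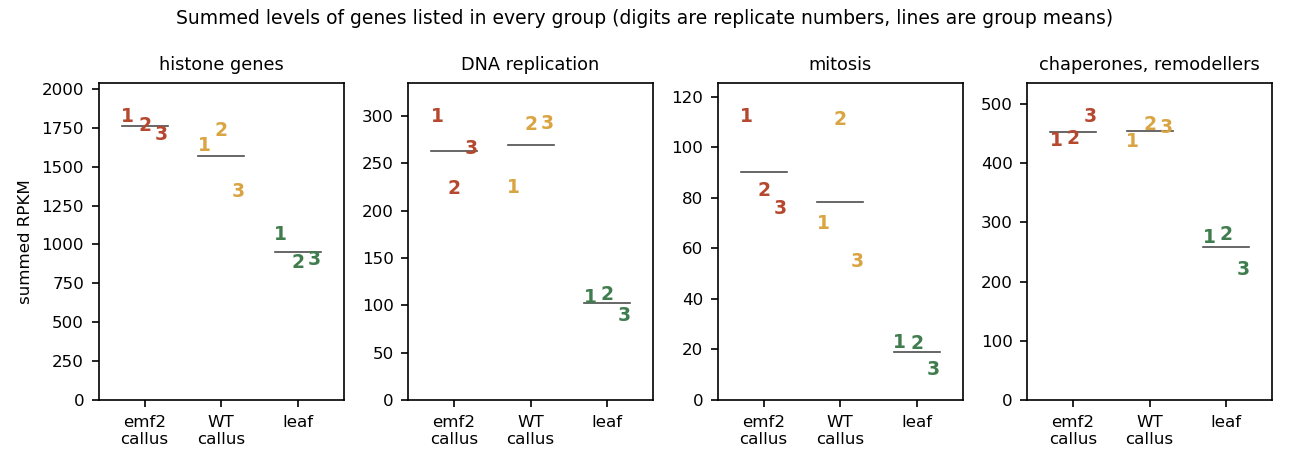
Summed RPKM of the histone genes (29) and of the lists for DNA replication (19), mitosis (8) and histone chaperones or remodellers (21) in each library, over the genes listed in all 3 groups, with digits as replicate numbers and lines as group means. All 4 sums are lower in leaf, and WT callus replicate 3 is the lowest callus library for histone genes (1340 RPKM) and mitosis genes (54.8 RPKM) but not for replication genes (292 RPKM).

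WT callus replicate 3 stood apart from its group. It was the lowest WT callus library for 23 of the 31 members listed there, against 38.6% of all genes, and the median ratio to the mean of the other two WT callus libraries was 0.680 for members and 0.992 for all genes. The ratio was 0.554 for AT5G59690 and 0.447 for HTR13 but 1.25 for AT3G53730 and 1.53 for HTB7, so genes for the same H4 protein moved in opposite directions in this library. It did not deviate alone, since deviations from group means correlated at 0.61 over 14476 genes between replicate 3 of WT callus and of emf2 callus. Summed mitosis genes were lowest in replicate 3 of each group, at 75.9 RPKM in emf2 callus, 54.8 in WT callus and 12.2 in leaf. The histone sum was lowest in replicate 3 in emf2 callus (1709 RPKM) but not in leaf (905 RPKM). The cause was not tested. Without WT callus replicate 3, 17 members rose and 2 fell against leaf, with a median of 0.97.

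The next comparison set emf2 callus against WT callus, which share tissue, medium and age and differ in the emf2 genotype. No histone gene passed in emf2 callus against WT callus. Of 31 members tested, 0 passed with limma, against 16 of all 16185 genes (0.0989%, with 0.0680% higher and 0.0309% lower), and 5 had an unadjusted p under 0.05, against 9.0% of all genes. The median log2 fold change was 0.20 over members and 0.00 over all genes, and it was 0.04 without WT callus replicate 3. Summed over the same 29 genes, the level was 1820, 1763 and 1709 RPKM in emf2 callus, against 1639, 1732 and 1340 RPKM in WT callus, and the lowest emf2 callus value lay below the highest WT callus value.

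The 5 members under an unadjusted p of 0.05 were HTA12, HTA8, HTB7, HTA2 and AT5G50930. In 4 of them the emf2 callus libraries lay above the WT callus libraries and in HTB7 below, against 9.69% and 8.89% of all genes, and no other tested member was free of overlap. HTA12 (H2A.W) had 3.94, 4.89 and 3.50 RPKM in emf2 callus, against 2.21, 2.18 and 1.41 RPKM in WT callus, so the groups did not overlap (log2 fold change 0.80, SE 0.18, adjusted p = 0.183). HTB7 (H2B) had 5.81, 5.22 and 7.48 RPKM in emf2 callus, against 11.9, 7.89 and 15.1 RPKM in WT callus (-0.79, SE 0.28, adjusted p = 0.447). HTA8 (H2A.Z) had 18.0, 18.4 and 18.0 RPKM in emf2 callus, against 15.5, 15.0 and 11.8 RPKM in WT callus (0.36, SE 0.12, adjusted p = 0.425). HTA2 (H2A) had 42.5, 36.7 and 35.0 RPKM in emf2 callus, against 27.6, 32.7 and 18.3 RPKM in WT callus (0.56, SE 0.23, adjusted p = 0.531).

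H1.3 had the highest log2 fold change of the tested members, with the widest error. H1.3 had 35.6, 142 and 63.1 RPKM in emf2 callus, against 47.0, 29.4 and 9.66 RPKM in WT callus. The groups overlapped, and the log2 fold change of 1.48 (SE 0.71, adjusted p = 0.608) did not pass. HTR6, the H3-like gene, was listed in emf2 callus alone, with 1.43, 1.38 and 1.22 RPKM. It did not pass against the bound of 1 RPKM with limma (adjusted p = 0.242). Listing fixed the direction of this test, which 19.5% of genes listed in emf2 callus and not in WT callus passed. HTR8 had 216, 232 and 274 RPKM in emf2 callus, against 265, 204 and 238 RPKM in WT callus (0.03, SE 0.18, adjusted p = 0.979).

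Of the H2A and H3 class shares, that of H2A.X alone was free of overlap. H3.1 made up 34.3, 26.9 and 27.9% of H3.1 and H3.3 RPKM in emf2 callus, against 29.2, 32.5 and 28.1% in WT callus. H2A.Z made up 25.6, 34.0 and 28.6% of H2A RPKM in emf2 callus, against 26.7, 27.8 and 24.4% in WT callus, and H2A.W 24.4, 22.5 and 22.6% in emf2 callus, against 22.8, 23.0 and 19.8% in WT callus. The replicative H2A genes made up 31.1, 27.2 and 30.0% in emf2 callus, against 28.8, 26.9 and 28.3% in WT callus. These 4 shares overlapped between the groups. HTA4 was counted as 0 in callus. The share of H2A.X, the variant phosphorylated at DNA breaks, was 18.9, 16.3 and 18.8% in emf2 callus, against 21.7, 22.2 and 27.5% in WT callus and 15.3, 15.2 and 15.8% in leaf, with no overlap between any of the groups. Its genes HTA3 and HTA5 lie outside the description rule, and HTA3, at 53.8, 41.8 and 45.8 RPKM in emf2 callus, against 56.0, 71.9 and 72.6 RPKM in WT callus, did not pass (-0.49, SE 0.16, adjusted p = 0.380). The share was singled out after its values were seen and was not tested. None of the replication, mitosis, chaperone and remodeller genes passed in this comparison.

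In emf2 callus against leaf, which shares its libraries with the comparisons above, 19 of 29 members rose (65.5%) and 3 fell, against 34.1% and 31.2% of all 14693 genes. At least a 2-fold change with a passing test was met by 14 members upward and 0 downward, against 14.8% and 21.8% of all genes, and 20 members lay wholly above leaf and 3 wholly below, against 38.2% and 33.9%. The median log2 fold change was 0.95 over members and 0.08 over all genes. With library totals 27 members rose and 0 fell, against 64.2% and 16.4% of all genes, and the members' median exceeded that of all genes by 0.98. H1.3 rose by 4.12 (SE 0.71, adjusted p = 0.00116), HTA8 by 2.36 (SE 0.12, adjusted p = 1.51e-06) and HTR9 by 1.73 (SE 0.23, adjusted p = 0.000252). HTR9 had 104, 80.2 and 80 RPKM in emf2 callus, against 28.7, 24 and 24.9 RPKM in leaf.

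AT3G45930 had the largest H4 rise, at 1.38 (SE 0.24, adjusted p = 0.00116), and HTB7 rose by 1.66 (SE 0.28, adjusted p = 0.00101). HTA2 rose by 0.69 (adjusted p = 0.0276), HTA11 by 0.67 (adjusted p = 0.0476) and HTB10 by 0.55 (adjusted p = 0.0155), which had not passed in WT callus against leaf, and in emf2 callus against WT callus these 3 did not pass either. The calls of HTA11 and HTA2 were lost in 5 and 4 of the 6 fits that left out 1 library. HTB10 passed in all 6 but not with limma after quantile normalization (0.35, adjusted p = 0.0513), and its leaf values rested on 13 to 15 reads. The 3 genes that fell were HTA12, by 0.72 (SE 0.18, adjusted p = 0.00833), HTB5, by 0.56 (SE 0.11, adjusted p = 0.00176), and AT3G07565, by 0.34 (adjusted p = 0.0398), a call lost in 5 of those 6 fits and with a replicate block (adjusted p = 0.0585). All 3 lay wholly below leaf, but with library totals none of the 3 fell. AT5G59690 did not pass on the deposited scaling (0.17, adjusted p = 0.578) but did with quantile normalization (1.11) and library totals (1.16). It had 188, 156 and 150 RPKM in emf2 callus and 169, 141 and 130 RPKM in leaf, and made up 25.9, 24.9 and 23.1% of H4 transcripts in emf2 callus, against 37.3 to 39.3% in leaf.

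The genes listed on 1 side gave the same calls against 1 RPKM, in tests whose direction the listing again fixed. AT5G19490 (1.71, 2.06 and 1.48 RPKM in emf2 callus) and AT5G50930 (2.70, 2.84 and 1.86 RPKM) passed, with adjusted p of 0.00767 and 0.000692, against 75.6% of genes listed in emf2 callus and not in leaf, and HTR6 did not (adjusted p = 0.0923). HTA4, listed in leaf, did not pass (adjusted p = 0.0584), whereas 84.6% of genes listed in leaf and not in emf2 callus passed.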

How the data were processed

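Expression was deposited by the authors as RPKM, per the file headers, and each group has a table of the genes whose mean exceeds 1 RPKM. The submitters' processing notes name FastQC, cutadapt, TopHat and the TAIR10 genome; the read counter, the gene lengths and the strand setting are not given in the sources used here. The RPKM ratios between libraries gave whole reads for 18861 of 18861 genes at a relative tolerance of 5e-13. For 515 genes missing from a table, the reads were multiplied by a whole number chosen by the annotated gene span. By these reads the deposited denominators are not totals over the listed genes, which are the library totals used here. Whether they are totals of all mapped reads is not known. The fit took log2(RPKM + 1) as input and ran in limma 3.58.1 under R 4.3.3 (1 coefficient per group over 9 libraries, eBayes with a trend), with Benjamini-Hochberg adjustment over all genes listed in both groups, and the two-sided threshold was an adjusted p of 0.05. Genes listed in 1 of the compared groups were tested against 1 RPKM, the minimum for listing, so the direction of these tests was fixed in advance. The fit was tested on simulated data. The members and lists were chosen with earlier results of these data known. Any member could be named. Full statistics follow the largest passing changes and the most abundant gene of each class. Listed genes of other pathways are named by their largest passing changes, and FAS1, HIRA, PIE1, SWC6, ARP6 and SWC4 were named outside this rule. Coordinates and sequences come from the TAIR10.1 assembly of RefSeq, which has the TAIR10 nuclear coordinates, with the first annotated transcript of each gene. Alternatives were other pseudocounts, filters, scalings, fits and left-out libraries.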

Additional observations from a re-analysis of the deposited data

How the results depend on the processing

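Under every alternative run, members rose more often than they fell in both comparisons with leaf. In WT callus against leaf, the higher and lower counts (16 and 2) became 27 and 1 with library totals, with a median of 1.65, and 20 and 1 with quantile normalization, with a median of 1.26. The lower count was 1 with a mean of at least 5 RPKM. In emf2 callus against leaf, the lower count of 3 became 0 with library totals and 1 with quantile normalization, with medians of 1.89 and 1.52. With 1 library left out, the higher counts were 13 to 17 and 17 to 19, the lower counts 2 to 3 in both, and the medians 0.60 to 0.97 and 0.83 to 1.09, and 14 of the 18 and 19 of the 22 calls held in every such fit. In emf2 callus against WT callus no alternative gave a call, and the left-out medians were 0.04 to 0.34. With library totals the log2 fold change turned positive for HTB5 (0.33 in WT callus and 0.40 in emf2 callus against leaf), AT3G07565 (0.57 and 0.53), HTB3 (0.08 and 0.64, not passing), HTA7 (0.91) and AT5G59690 (0.80) in WT callus, and HTA12 (0.12) in emf2 callus; with quantile normalization for HTA7 (0.51) and AT5G59690 (0.69, not passing) in WT callus and HTB5 (0.05) in emf2 callus. Among 2 sets added after the data were seen, all listed histone genes gave 29 higher in WT callus and 32 higher in emf2 callus against leaf, of 42 tested genes in each, and the share that rose was 69.0% and 76.2%, against 55.2% and 65.5% of the members; leaving out the 3 genes that are no histones gave 16 and 2, and 19 and 2. Replicate numbers did not pair the libraries throughout. Correlations of deviations from group means over 14476 genes were under 0.1 in at least 1 number of each comparison. For replicate 3 they were 0.61 between emf2 and WT callus, 0.11 between WT callus and leaf and 0.16 between emf2 callus and leaf. Those of replicates 1 and 2 were -0.21 to 0.18. The replicate block gave 16 higher and 2 lower in WT callus against leaf. It gave 19 and 2 in emf2 callus against leaf and 0 in emf2 callus against WT callus. As shares of reads and not of RPKM, H3.1 was 17.0, 17.2 and 13.6% in emf2 callus, WT callus and leaf, H2A.Z 37.3, 33.9 and 33.2%, and H2A.W 20.0, 19.1 and 22.6%, since longer genes then weigh more. With 3 libraries per group and a median SE of 0.18 log2 units, small differences were not detectable. In emf2 callus against WT callus all passing genes, 11 higher and 5 lower, changed at least 2-fold. The lack of calls among members there does not exclude moderate changes.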
